A study of Mus musculus with 16 samples.

Results

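Of 51 listed cell cycle and DNA replication genes, 49 were found by symbol among the 19505 genes of the arrays. Mcm7 and Ccnb1 were not analysed here. The list names genes by what they do in dividing cells. It covers G1/S regulators, the licensing of replication origins and the replicative helicase, the replication fork and nucleotide supply, the cyclins of S, G2 and M phase with Cdk1, mitotic kinases, the centromere, and the spindle with cytokinesis. The proliferation markers Mki67 and Top2a complete it.

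The study exposed S100a5-tauGFP mice to an odor and sorted their olfactory mucosa by fluorescence. The question was which genes differ between cells with and without the reporter, and between odor and filtered air. Per the labels, 24 mice of both sexes, 7 to 12 weeks old, sat singly in clean-air chambers for 40 h at 3.1 L/min. From 26 h on they received pulses of 10 s every 20 min, of indole/ionone in the odor arm or of filtered air in the vehicle arm. Every mouse of both arms carried the reporter, in which the promoter of S100a5, a gene of sensory neurons that have been active, drives GFP. The mucosa of 3 mice was pooled, dissociated and sorted into GFP+ and GFP- cells, and each of the 16 samples (4 odor pools and 4 vehicle pools, each with a GFP+ and a GFP- sample) was read on 1 Clariom S array. The GFP- samples are what was left after the GFP+ cells were taken, so they hold many cell types. The sources used here give neither the ionone isomer nor the doses.

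Cells enter a new division in G1, when cyclin E with its kinase frees the E2F transcription factors, which turn on the genes of DNA synthesis. Mcm proteins are loaded on origins with the help of Cdc6 and Cdt1 and are later switched on as the helicase, with Cdc45 and the GINS complex. Mitotic genes follow, with cyclin A, cyclin B and Cdk1, the Aurora and Polo kinases, and the kinesins, and the anaphase-promoting complex ends mitosis by destroying cyclins. In the olfactory epithelium division takes place in globose basal cells, which renew sensory neurons through life, and in horizontal basal cells after injury. Mature sensory neurons no longer divide. Blood and marrow in the mucosa and the underlying bone can hold dividing precursors as well.

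Promoters of these genes are known for a few short sequences: the cell cycle genes homology region (CHR) of mitotic genes, the CCAAT box, and the E2F site of DNA synthesis genes. The following stretches run from 250 bases before to 30 bases after the transcription start, 5′ to 3′ on the strand of the gene, from RefSeq on the mouse build GRCm38.p6. Mki67, Ube2c and Ccnb2 are shown as mitotic genes with large differences between the fractions, Mcm6 and Mcm5 as helicase genes that were lower in GFP+ cells, and Cdc45 as a gene with no call in either arm. Capitals mark the CHR (TTTGAA or TTCGAA), the CCAAT box (CCAAT), and the E2F words TTTCCCGC, TTTGGCGC, TTTCGCGC and TTTGCCGC, each searched on both strands.

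Mki67: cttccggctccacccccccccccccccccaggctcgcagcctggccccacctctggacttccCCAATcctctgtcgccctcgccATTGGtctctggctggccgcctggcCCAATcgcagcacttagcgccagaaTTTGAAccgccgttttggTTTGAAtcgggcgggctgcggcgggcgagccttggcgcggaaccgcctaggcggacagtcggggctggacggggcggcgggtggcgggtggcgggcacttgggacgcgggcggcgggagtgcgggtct
Ube2c: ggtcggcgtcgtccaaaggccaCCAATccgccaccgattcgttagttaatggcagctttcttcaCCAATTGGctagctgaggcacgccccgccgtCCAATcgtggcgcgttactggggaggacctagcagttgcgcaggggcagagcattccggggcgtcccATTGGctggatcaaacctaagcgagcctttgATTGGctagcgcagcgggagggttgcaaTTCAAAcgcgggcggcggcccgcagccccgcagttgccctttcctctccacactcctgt
Ccnb2: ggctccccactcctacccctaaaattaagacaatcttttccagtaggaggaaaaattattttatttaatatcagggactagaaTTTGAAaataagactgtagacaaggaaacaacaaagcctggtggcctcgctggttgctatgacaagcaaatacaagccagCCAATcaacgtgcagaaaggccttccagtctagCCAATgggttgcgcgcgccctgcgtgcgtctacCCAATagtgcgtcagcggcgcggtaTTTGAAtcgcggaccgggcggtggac
Mcm6: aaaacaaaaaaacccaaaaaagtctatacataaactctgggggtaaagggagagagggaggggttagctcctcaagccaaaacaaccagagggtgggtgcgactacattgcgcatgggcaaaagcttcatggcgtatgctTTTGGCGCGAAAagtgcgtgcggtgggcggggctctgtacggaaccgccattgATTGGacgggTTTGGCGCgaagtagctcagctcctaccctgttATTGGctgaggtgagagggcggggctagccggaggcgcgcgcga
Mcm5: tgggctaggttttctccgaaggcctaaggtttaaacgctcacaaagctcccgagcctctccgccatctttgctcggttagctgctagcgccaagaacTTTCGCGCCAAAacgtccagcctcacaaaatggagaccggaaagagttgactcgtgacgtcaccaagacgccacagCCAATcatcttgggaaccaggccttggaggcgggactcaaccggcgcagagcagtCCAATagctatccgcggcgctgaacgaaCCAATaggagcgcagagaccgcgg
Cdc45: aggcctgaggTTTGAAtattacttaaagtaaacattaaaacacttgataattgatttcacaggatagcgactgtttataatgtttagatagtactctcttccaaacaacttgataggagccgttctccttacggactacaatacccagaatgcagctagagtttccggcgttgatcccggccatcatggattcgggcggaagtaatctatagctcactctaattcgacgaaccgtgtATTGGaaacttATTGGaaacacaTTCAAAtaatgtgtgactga

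The Mki67 stretch (chr7:135716350-135716629, minus strand) holds 2 CHR matches and 3 CCAAT boxes. The Ube2c stretch (chr2:164769679-164769958, plus strand) holds 1 CHR match, on the opposite strand, and 6 CCAAT boxes, of which a pair on opposite strands overlap. The Ccnb2 stretch (chr9:70421525-70421804, minus strand) holds 2 CHR matches and 3 CCAAT boxes. No CHR was found in the stretches of Mcm6 (chr1:128359676-128359955, minus strand) and Mcm5 (chr8:75109259-75109538, plus strand). Mcm6 has 3 E2F matches, a pair of them overlapping on opposite strands, and 2 CCAAT boxes. Mcm5 has 2 E2F matches, which overlap in the same way, and 3 CCAAT boxes. The Cdc45 stretch (chr16:18811943-18812222, minus strand) holds 2 CHR matches and 2 CCAAT boxes, although its level did not differ between the fractions beyond the spread of the pools.

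A RefSeq promoter of 300 bases, from 250 before to 50 after the start, was found for 42 of the 49 genes. A CHR match was present in 21 of 25 genes that act from S phase to mitosis (84%) and in 3 of 17 genes of G1/S control and DNA synthesis (17.6%). The share was 19.2% among all 32851 promoters of the table and 21.7% among its 27025 genes. The E2F words were present in 6 of the 17 DNA synthesis genes (35.3%), in 1 of the 25 mitotic genes (4%) and in 2.26% of all promoters (2.6% of genes). The CCAAT box was found in 64.7% of the first group, 76% of the second and 37.4% of all promoters (41.1% of genes). A match describes the letters of the window and is no measurement of binding.

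Within a group, the correlation between arrays was 0.984 to 0.994 across genes, and array medians lay between 6.61 and 7.06 on the log2 scale. The GFP- sample of odor replicate 3 stood apart from the others on the second principal component of all genes, at 58.9. The next was the GFP- sample of vehicle replicate 3, at 24.6. Y-linked genes were low in both fractions of these 2 pools and of no other pool, so the pools differ in the sexes they hold, and the labels do not give the sex by pool. Without odor replicate 3 the odor arm had 36 of the 49 genes called lower in GFP+ cells, and without vehicle replicate 3 the vehicle arm had 40. With 4 pools per arm, the number of arrays limits the precision.

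The 49 genes were lower in GFP+ than in GFP- cells, or did not pass the test, and 0 were higher. A gene was called when the adjusted p for its within-pool difference, GFP+ minus GFP-, was under 0.05 (limma with Benjamini-Hochberg adjustment over all 19505 genes). In odor pools 36 of the 49 genes were called lower and 0 higher, where 10.6% of all genes were called lower, 7.96% higher and 18.6% in either direction. In vehicle pools 39 were called lower and 0 higher, against 10.8%, 8.86% and 19.7% of all genes. The same 36 genes were called in both arms, against 9.26% of all genes, and 10 genes were called in neither. The median log2 difference of the 49 genes was -1.53 in odor pools and -1.5 in vehicle pools, where the median over all genes was 0.11 in either arm. With values raised to the array background before the fit, these medians were -0.63 and -0.73. At that floor 23 and 22 genes were called lower. With each array centred on its median, 35 and 36 were, and calls higher in GFP+ cells went from 42.9% and 45.1% to 86.5% of all calls in either arm. In this bulk comparison, fewer dividing cells and less of these RNAs per cell cannot be told apart.

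Every GFP+ sample lay below every GFP- sample for 36 of the 49 genes in odor pools (10.6% of all genes) and for 40 in vehicle pools (10.9% of all genes). The mean log2 level of the 49 genes ran from 5.45 to 5.56 in the 4 GFP+ samples of odor pools and from 5.41 to 5.49 in those of vehicle pools. It ran from 6.73 to 7.67 in the GFP- samples of odor pools and from 7.03 to 7.59 in those of vehicle pools, so the fractions did not overlap. Among the 36 genes called in both arms, 28 varied more over the 8 GFP- samples than over the 8 GFP+ samples. Their median SD was 0.52 in GFP- cells and 0.28 in GFP+ cells. Of these 36 genes, 21 had means above the array background in GFP- cells only and 7 in neither fraction. Whether low levels narrow the spread in GFP+ cells was not tested, and the share over all genes was not counted.

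**Figure D1:**
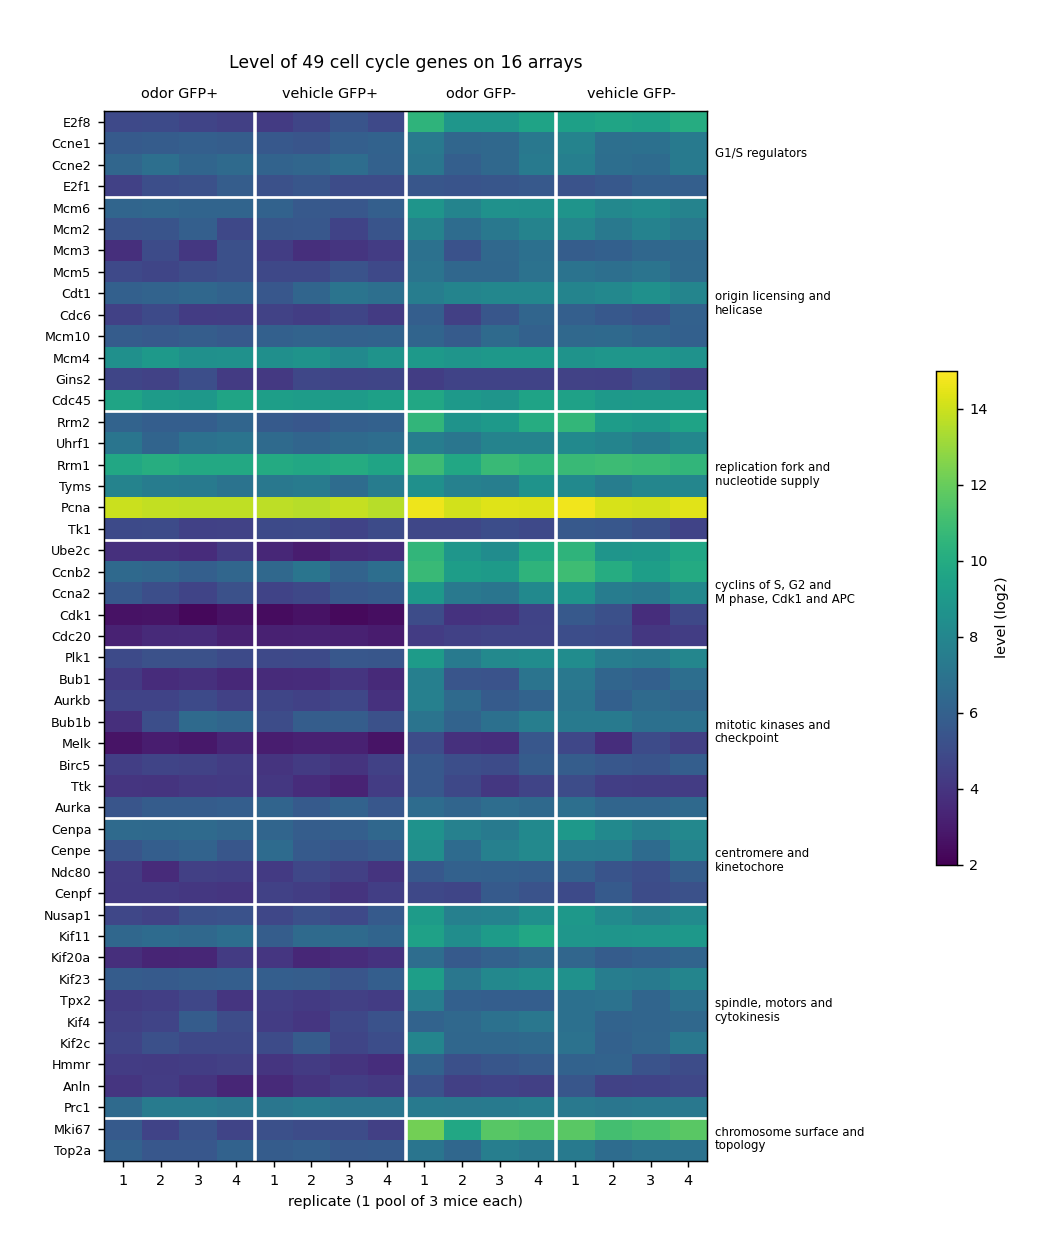
Log2 level of the 49 genes on the 16 arrays, ordered by role, with 4 GFP+ columns per arm on the left and 4 GFP- columns per arm on the right (replicates 1 to 4). The GFP- columns are brighter for most genes and vary from pool to pool, Pcna is bright in every column, and Gins2, Cdc45 and Prc1 look alike in both fractions.

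Low levels have to be read against the array's background. The arrays carry 23 antigenomic probes, which match no mouse sequence, and their median lay between 5.63 and 6.05 on the 16 arrays. Mean levels of 15 of the 49 genes were above this background in both fractions, and 8 of these were called lower in both arms (709 of 10539 over all genes). For 21 genes the mean was above background in GFP- cells and not in GFP+ cells, and 21 of 21 were called lower in both arms. Over all genes 751 of 894 in this class were called lower in both arms, as the class is set by the same levels that the call tests. The other 13 were not above background in either fraction, 7 of them called lower in both arms (347 of 7837 over all genes), and no fold is given for them. Where all 4 GFP+ samples of an arm were under background, the fold is a lower bound, computed against the background of each array. Such bounds exist for 14 genes in odor pools, from 1.22 to 41.3, and for 15 genes in vehicle pools, from 1.16 to 48.6. The background probes differ from these genes in base composition, which the median does not take into account.

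Of the 4 G1/S regulators, 2 were called lower in both arms, E2f8 and Ccne1. E2f8, an atypical E2F that represses E2F targets late in S phase, read 4.85, 4.9, 4.68 and 4.48 in GFP+ cells of odor replicates 1 to 4 and 10.45, 8.83, 8.81 and 9.55 in their GFP- cells. Vehicle pools held E2f8 at 4.28, 4.71, 5.4 and 4.87 in GFP+ cells and at 9.38, 9.6, 9.46 and 10.05 in GFP- cells. The fractions were far apart in each pool, and the level in GFP+ cells was at least 11.5-fold lower in odor pools and at least 13.8-fold lower in vehicle pools. The log2 difference was -4.68 ± 0.27 in odor pools (mean of 4 pools ± the SE of the fit to all 8 pools, which both arms share and which is used throughout, adjusted p = 2.36e-07) and -4.80 ± 0.27 in vehicle pools (adjusted p = 2.05e-07). E2f1, an activating E2F, read 4.49, 5.1, 5.23 and 5.83 in GFP+ cells of odor pools and 5.5, 5.37, 5.47 and 5.64 in their GFP- cells. E2f1 in vehicle pools read 5.21, 5.48, 5.04 and 5.03 in GFP+ cells and 5.31, 5.6, 5.97 and 5.95 in GFP- cells. These values overlap in both arms, and 2 of the 16 lie above background. Neither difference was called by limma (-0.33 ± 0.21, adjusted p = 0.313, in odor pools and -0.52 ± 0.21, adjusted p = 0.116, in vehicle pools). Of the E-type cyclins, Ccne1 differed by -0.95 ± 0.24 (adjusted p = 0.0178) in odor pools and by -1.40 ± 0.24 (adjusted p = 0.00151) in vehicle pools. Ccne2 differed by -0.25 ± 0.31 (adjusted p = 0.617) and -0.76 ± 0.31 (adjusted p = 0.111) and was not called. The Ccne1 call was lost without odor replicate 1 or without odor replicate 4 in the odor arm.

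Origin licensing and the helicase were divided: 5 of 10 genes were called lower in both arms (Mcm2, Mcm3, Mcm5, Mcm6 and Cdt1), Cdc6 in vehicle pools, and Mcm4, Mcm10, Cdc45 and Gins2 in neither. The mean of Cdc6 was not above background in either fraction. Its vehicle call was lost with the floor and without vehicle replicate 1, 2 or 4. With the floor the Mcm3 call was lost in both arms. Mcm6, a subunit of the helicase, read 6.23, 6.36, 6.21 and 6.19 in GFP+ cells of odor pools and 8.77, 7.85, 8.57 and 8.51 in their GFP- cells. Mcm6 in vehicle pools read 6.1, 5.65, 5.53 and 5.94 in GFP+ and 8.72, 8.07, 8.31 and 7.83 in GFP- cells. The GFP+ values lay close to background and the GFP- values stood clear of them in every pool. Mcm6 differed by -2.18 ± 0.19 (adjusted p = 8.03e-06) in odor pools and -2.43 ± 0.19 (adjusted p = 3.43e-06) in vehicle pools. The level was 4.53-fold lower in odor pools, and no fold is given for vehicle pools, where the GFP+ mean was not above background. Mcm2, a further helicase subunit, read 5.35, 5.36, 5.95 and 4.83 in GFP+ and 7.83, 6.58, 7.19 and 7.82 in GFP- cells of odor pools. Vehicle pools held Mcm2 at 5.5, 5.51, 4.61 and 5.38 in GFP+ cells and at 7.98, 7.26, 7.75 and 7.23 in GFP- cells. GFP- values exceeded GFP+ values throughout, and the log2 difference was -1.98 ± 0.31 (adjusted p = 0.000701) in odor pools and -2.30 ± 0.31 (adjusted p = 0.000215) in vehicle pools.

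Cdt1 loads the helicase on origins and is kept low outside G1. Cdt1 read 5.97, 6.16, 6.35 and 6.09 in GFP+ and 7.51, 7.88, 8.01 and 8.03 in GFP- cells of odor pools. Cdt1 in vehicle pools read 5.55, 6.24, 6.99 and 6.73 in GFP+ and 7.86, 8.09, 8.52 and 7.93 in GFP- cells. No GFP+ value reached a GFP- value, and the differences in the arms, -1.71 ± 0.17 and -1.72 ± 0.17, were nearly the same (adjusted p = 2.29e-05 and 2.08e-05). Mcm10, which helps to start forks, read 5.77, 5.62, 5.84 and 5.65 in GFP+ and 6.21, 5.75, 6.51 and 6.06 in GFP- cells of odor pools. Vehicle pools held Mcm10 at 6.01, 6.13, 6.02 and 6.1 in GFP+ cells and at 6.39, 6.42, 6.19 and 6 in GFP- cells. The values lie near background and overlap in both arms, and the differences of -0.41 ± 0.14 (adjusted p = 0.0636) and -0.19 ± 0.14 (adjusted p = 0.398) were not called. Gins2, a subunit of the GINS complex, read 4.72, 4.57, 5.12 and 4.28 in GFP+ and 4.35, 4.61, 4.62 and 4.59 in GFP- cells of odor pools. Gins2 in vehicle pools read 4.17, 4.78, 4.68 and 4.73 in GFP+ and 4.56, 4.52, 4.91 and 4.45 in GFP- cells. Every Gins2 value was under background and the fractions overlapped, with differences of 0.13 ± 0.17 and -0.02 ± 0.17. Cdc45 and Mcm4, both well above background, differed by 0.04 ± 0.13 and -0.25 ± 0.16 in odor pools and by 0.09 ± 0.13 and -0.23 ± 0.16 in vehicle pools, and neither was called in either arm. With each array centred on its median, Cdc45 passed as higher in GFP+ cells of odor (0.38) and vehicle pools (0.43), and Gins2 of odor pools (0.47).

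At the fork and in nucleotide supply, 3 of 6 genes were called lower in both arms, Rrm2, Uhrf1 and Pcna, and Rrm1 in vehicle pools. Rrm2, the subunit of ribonucleotide reductase whose supply follows S phase, read 6.12, 5.89, 5.88 and 6.26 in GFP+ and 10.55, 8.7, 8.96 and 10.07 in GFP- cells of odor pools. Vehicle pools held Rrm2 at 5.67, 5.53, 5.94 and 6.04 in GFP+ cells and at 10.62, 9.17, 8.92 and 9.55 in GFP- cells. Rrm2 was thus near background in GFP+ cells, and replicate 1 was the highest GFP- sample in either arm. The difference was -3.53 ± 0.31 (11.6-fold lower, adjusted p = 7.04e-06) in odor pools and -3.77 ± 0.31 (GFP+ mean not above background, adjusted p = 4.27e-06) in vehicle pools. Its partner subunit Rrm1 differed by -0.60 ± 0.20 (adjusted p = 0.0644) and -0.94 ± 0.20 (adjusted p = 0.00682). Pcna, the sliding clamp of DNA polymerases, which also serves DNA repair, read 13.94, 13.83, 13.75 and 13.74 in GFP+ and 14.65, 14.13, 14.35 and 14.33 in GFP- cells of odor pools. Pcna in vehicle pools read 13.68, 13.59, 13.86 and 13.61 in GFP+ and 14.7, 14.23, 14.11 and 14.41 in GFP- cells. So Pcna lay far above background in both fractions, with a small step between them and no overlap within an arm. The step was -0.55 ± 0.15 (1.46-fold lower, adjusted p = 0.0246) in odor pools and -0.68 ± 0.15 (1.6-fold lower, adjusted p = 0.00709) in vehicle pools. The odor call was lost without odor replicate 1, 3 or 4, and with each array centred on its median the call was lost in both arms.

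Uhrf1 keeps DNA methylation through replication. Uhrf1 read 7.05, 6.17, 6.85 and 7.02 in GFP+ and 7.5, 7.12, 7.8 and 7.83 in GFP- cells of odor pools. Vehicle pools held Uhrf1 at 6.5, 6.23, 6.47 and 6.65 in GFP+ cells and at 8.15, 7.85, 7.48 and 8 in GFP- cells. It was above background in both fractions and lower in the GFP+ sample of each pool, with differences of -0.79 ± 0.15 (adjusted p = 0.00299) in odor pools and -1.41 ± 0.15 (adjusted p = 3.56e-05) in vehicle pools. Tk1, thymidine kinase, read 4.91, 4.98, 4.52 and 4.56 in GFP+ and 4.78, 4.78, 5.08 and 4.86 in GFP- cells of odor pools. Tk1 in vehicle pools read 4.93, 4.95, 4.63 and 4.95 in GFP+ and 5.65, 5.52, 5.2 and 4.64 in GFP- cells. Every Tk1 value was under background and neither difference was called (-0.13 ± 0.19 and -0.39 ± 0.19). Tyms, which makes thymidylate, differed by -0.74 ± 0.26 (adjusted p = 0.0737) and -0.73 ± 0.26 (adjusted p = 0.0741) and was not called either.

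**Figure D2:**
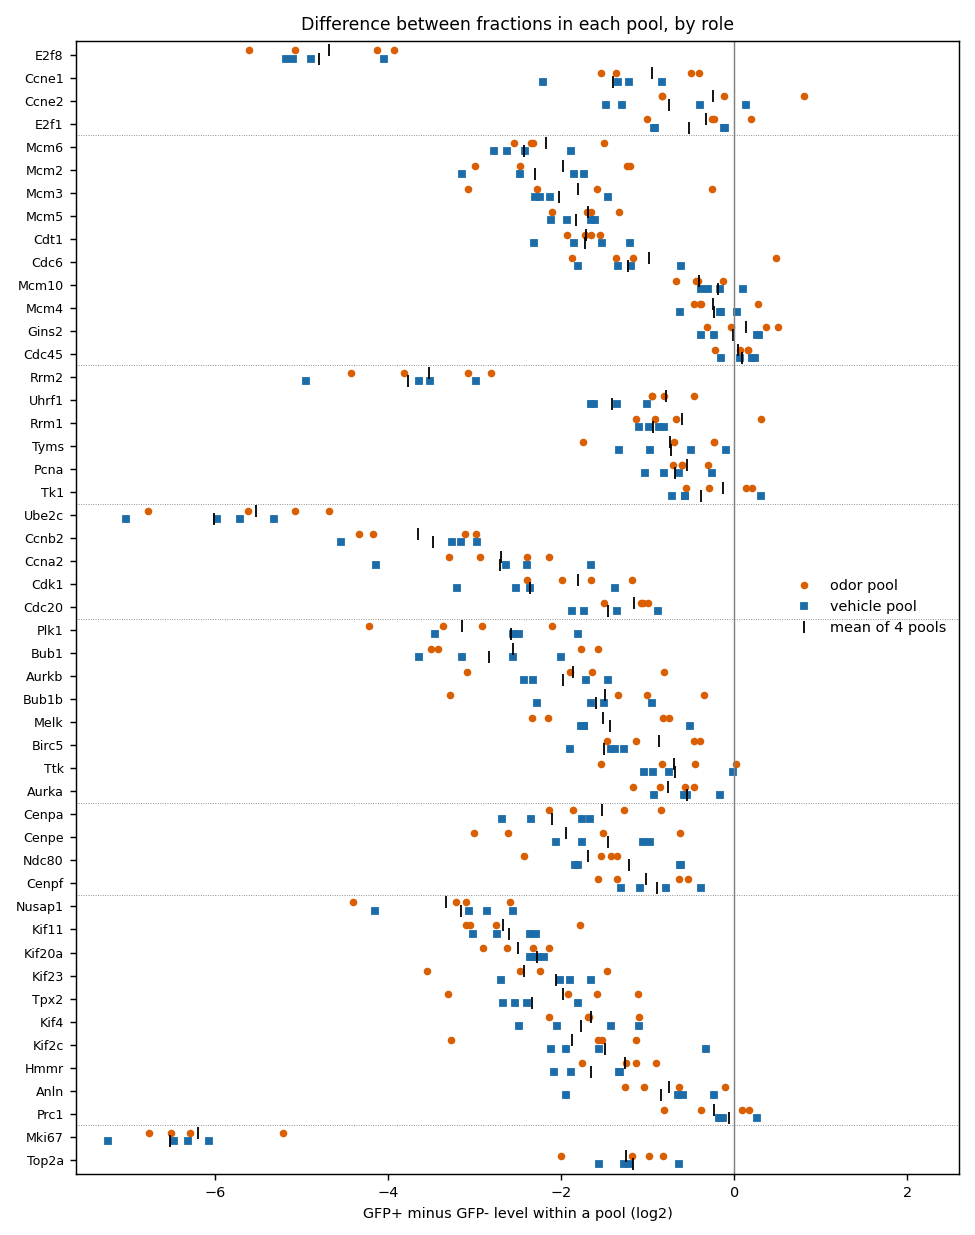
Difference between GFP+ and GFP- log2 levels within each of the 4 odor pools (circles) and 4 vehicle pools (squares), with the mean of each arm as a bar, for the 49 genes by role. Mki67, Ube2c and E2f8 lie farthest to the left, with means from -4.68 to -6.52, while Gins2, Cdc45, Mcm4 and Prc1 lie around 0.

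The cyclins of S, G2 and M phase, with Cdk1 and genes of the anaphase-promoting complex, were called lower in both arms for 5 of 5 genes, with median log2 differences of -2.7 in odor pools and -2.71 in vehicle pools. Ube2c, the ubiquitin-conjugating enzyme that works with the complex, read 3.78, 3.78, 3.65 and 4.24 in GFP+ and 10.55, 8.85, 8.33 and 9.86 in GFP- cells of odor pools. Vehicle pools held Ube2c at 3.44, 3.06, 3.56 and 3.71 in GFP+ cells and at 10.48, 8.77, 8.88 and 9.68 in GFP- cells. All 8 GFP+ values were under background and all 8 GFP- values well above it. The level in GFP+ cells was at least 11.3-fold lower in odor pools (-5.53 ± 0.32, adjusted p = 2.58e-07) and at least 12.3-fold lower in vehicle pools (-6.01 ± 0.32, adjusted p = 1.44e-07). Ccna2, cyclin A2, read 5.6, 5.11, 4.67 and 5.24 in GFP+ and 8.91, 7.25, 7.07 and 8.19 in GFP- cells of odor pools. Ccna2 in vehicle pools read 4.61, 4.82, 5.54 and 5.69 in GFP+ and 8.75, 7.46, 7.2 and 8.09 in GFP- cells. The GFP- samples of replicates 1 and 4 were the highest in each arm. The Ccna2 level was at least 3.89-fold lower in GFP+ cells of odor pools (-2.70 ± 0.32, adjusted p = 9.17e-05) and at least 4.11-fold lower in those of vehicle pools (-2.71 ± 0.32, adjusted p = 8.9e-05). Ccnb2, cyclin B2, differed by -3.65 ± 0.29 (12.5-fold, adjusted p = 2.64e-06) and -3.48 ± 0.29 (11.2-fold, adjusted p = 4.01e-06).

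Cdk1, the kinase that drives entry into mitosis, gave low readings on its probe. Cdk1 read 2.62, 2.71, 2.28 and 2.61 in GFP+ and 5.01, 3.89, 3.94 and 4.6 in GFP- cells of odor pools. Vehicle pools held Cdk1 at 2.45, 2.66, 2.34 and 2.46 in GFP+ cells and at 5.65, 5.18, 3.71 and 4.82 in GFP- cells. All 16 readings were under background, so no fold is given, although each GFP+ value lay below each GFP- value of its arm and the differences were called (-1.80 ± 0.26, adjusted p = 0.000417, and -2.36 ± 0.26, adjusted p = 4.86e-05). Cdc20, an activator of the anaphase-promoting complex, read 3.23, 3.53, 3.58 and 3.17 in GFP+ and 4.29, 4.53, 4.66 and 4.68 in GFP- cells of odor pools. Cdc20 in vehicle pools read 3.21, 3.25, 3.21 and 2.99 in GFP+ and 5.08, 4.99, 4.09 and 4.35 in GFP- cells. Cdc20 too was under background on every array, with no overlap between the fractions and called differences of -1.16 ± 0.17 (adjusted p = 0.00051) and -1.46 ± 0.17 (adjusted p = 8.29e-05).

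Among mitotic kinases and checkpoint genes, 7 of 8 were called lower in both arms, and Ttk was not called in either (-0.70 ± 0.24, adjusted p = 0.0663, and -0.69 ± 0.24, adjusted p = 0.0686). Plk1, the Polo kinase of mitotic entry and spindle assembly, read 4.94, 5.22, 5.23 and 4.94 in GFP+ and 9.16, 7.32, 8.14 and 8.31 in GFP- cells of odor pools. Vehicle pools held Plk1 at 4.85, 4.93, 5.55 and 5.47 in GFP+ cells and at 8.31, 7.5, 7.34 and 7.96 in GFP- cells. The GFP+ samples were under background and the GFP- samples above it in each pool. Plk1 was at least 5.06-fold lower in odor pools (-3.15 ± 0.31, adjusted p = 1.96e-05) and at least 3.85-fold lower in vehicle pools (-2.58 ± 0.31, adjusted p = 9.72e-05). Aurka, the Aurora kinase of centrosomes, read 5.43, 5.79, 5.8 and 5.88 in GFP+ and 6.6, 6.26, 6.67 and 6.45 in GFP- cells of odor pools. Aurka in vehicle pools read 6.17, 5.68, 6.09 and 5.54 in GFP+ and 6.75, 6.23, 6.24 and 6.46 in GFP- cells. Its step was small, -0.77 ± 0.16 (adjusted p = 0.00597) in odor pools and -0.55 ± 0.16 (adjusted p = 0.0345) in vehicle pools, and the vehicle call was lost without vehicle replicate 1, 2 or 4. The Aurka vehicle call was also lost with each array centred on its median, after quantile normalization, with the floor and without moderated variances. In odor pools the Aurka call was lost after quantile normalization. Aurkb, the Aurora kinase of centromeres and the cleavage site, differed by -1.86 ± 0.30 and -1.98 ± 0.30, and was at least 1.53-fold lower in either arm. With the floor the Aurkb call was lost in both arms. The checkpoint kinase Bub1 differed by -2.56 ± 0.35 and -2.83 ± 0.35, and its partner Bub1b by -1.49 ± 0.38 and -1.60 ± 0.38. Bub1 was under background in every GFP+ sample, at least 1.38-fold lower in odor pools and at least 1.61-fold lower in vehicle pools. With the floor its call was lost in both arms.

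Birc5, or survivin, holds Aurkb at the centromere. Birc5 read 4.43, 4.66, 4.56 and 4.29 in GFP+ and 5.57, 5.12, 4.96 and 5.77 in GFP- cells of odor pools. Vehicle pools held Birc5 at 3.93, 4.26, 3.96 and 4.52 in GFP+ cells and at 5.83, 5.53, 5.39 and 5.89 in GFP- cells. Of these 16 values 2 lay above background, and the called differences were -0.87 ± 0.19 (adjusted p = 0.00762) and -1.50 ± 0.19 (adjusted p = 0.000151). Melk, a kinase that is high in dividing progenitors, was under background throughout, with differences of -1.52 ± 0.30 and -1.44 ± 0.30.

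The 4 centromere and kinetochore genes were called lower in both arms. Cenpa, the histone variant that marks centromeres, read 6.5, 6.43, 6.5 and 6.31 in GFP+ and 8.64, 7.7, 7.35 and 8.17 in GFP- cells of odor pools. Cenpa in vehicle pools read 6.24, 5.82, 5.95 and 6.32 in GFP+ and 8.92, 8.18, 7.63 and 8.07 in GFP- cells. Cenpa was above background in both fractions, and 2.89-fold lower in GFP+ cells of odor pools (-1.53 ± 0.23, adjusted p = 0.000472) and 4.33-fold lower in those of vehicle pools (-2.11 ± 0.23, adjusted p = 3.59e-05). Cenpf, a kinetochore protein of G2 and mitosis, read 4.2, 4.19, 4.1 and 4 in GFP+ and 4.83, 4.71, 5.68 and 5.35 in GFP- cells of odor pools. Vehicle pools held Cenpf at 4.52, 4.37, 3.95 and 4.41 in GFP+ cells and at 4.9, 5.68, 5.03 and 5.2 in GFP- cells. Its values stayed under background without overlap, with differences of -1.02 ± 0.21 (adjusted p = 0.00421) and -0.89 ± 0.21 (adjusted p = 0.00977). The kinetochore motor Cenpe differed by -1.94 ± 0.33 and -1.46 ± 0.33, and the microtubule-binding subunit Ndc80 by -1.69 ± 0.25 and -1.22 ± 0.25. Ndc80 was under background in every GFP+ sample, and its call was lost with the floor in both arms.

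Of the 10 spindle, motor and cytokinesis genes, 8 were called lower in both arms, Anln in vehicle pools, and Prc1 in neither. Anln was under background on every array. Its vehicle call was lost with each array centred on its median, after quantile normalization, and without vehicle replicate 1, 2 or 4. Nusap1, which bundles spindle microtubules, read 4.75, 4.54, 5.17 and 5.26 in GFP+ and 9.16, 7.64, 7.76 and 8.48 in GFP- cells of odor pools. Nusap1 in vehicle pools read 4.79, 5.16, 4.87 and 5.67 in GFP+ and 8.94, 8.23, 7.73 and 8.22 in GFP- cells. The GFP+ readings were under background, at least 5.15-fold lower in odor pools (-3.33 ± 0.29, adjusted p = 7e-06) and at least 5.45-fold lower in vehicle pools (-3.16 ± 0.29, adjusted p = 1.09e-05). Hmmr, a receptor for hyaluronan that also binds the spindle, read 4.32, 4.26, 4.34 and 4.46 in GFP+ and 6.07, 5.17, 5.47 and 5.71 in GFP- cells of odor pools. Vehicle pools held Hmmr at 4.02, 4.24, 3.98 and 3.7 in GFP+ cells and at 6.09, 6.13, 5.31 and 5.03 in GFP- cells. The Hmmr fractions did not overlap and 3 of the 16 values were above background, with differences of -1.26 ± 0.18 (adjusted p = 0.000333) and -1.65 ± 0.18 (adjusted p = 3.81e-05). Prc1, which bundles microtubules in the midzone of the spindle, read 6.49, 7.42, 7.43 and 7.14 in GFP+ and 7.3, 7.25, 7.34 and 7.52 in GFP- cells of odor pools. Prc1 in vehicle pools read 7.11, 7.36, 7.05 and 7.05 in GFP+ and 7.24, 7.1, 7.22 and 7.23 in GFP- cells. Prc1 stood above background in both fractions with overlapping values, and its differences of -0.23 ± 0.17 (adjusted p = 0.39) and -0.06 ± 0.17 (adjusted p = 0.857) were not called. Among the kinesins, Kif11, which pushes spindle poles apart, differed by -2.67 ± 0.22 (6.37-fold) and -2.60 ± 0.22 (6.08-fold). Kif20a and Kif23, both of cytokinesis, differed by -2.50 ± 0.14 and -2.43 ± 0.28 in odor pools and by -2.28 ± 0.14 and -2.06 ± 0.28 in vehicle pools. Kif20a was under background in every GFP+ sample, at least 1.22-fold lower in odor pools and at least 1.16-fold lower in vehicle pools. With the floor its call was lost in both arms.

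Mki67, the Ki-67 protein that coats mitotic chromosomes and is the usual marker of proliferation, was called lower in both arms. It read 5.7, 4.61, 5.31 and 4.66 in GFP+ and 12.21, 9.82, 11.6 and 11.42 in GFP- cells of odor pools. Vehicle pools held Mki67 at 5.18, 5.04, 5 and 4.45 in GFP+ cells and at 11.66, 11.11, 11.31 and 11.68 in GFP- cells. All GFP+ readings were under background, and among GFP- samples odor replicate 2 stood lowest. The level was at least 41.3-fold lower in GFP+ cells of odor pools (-6.19 ± 0.25, adjusted p = 1.62e-08) and at least 48.6-fold lower in those of vehicle pools (-6.52 ± 0.25, adjusted p = 1.06e-08). Top2a, the topoisomerase that untangles chromosomes before they part, read 6.05, 5.53, 5.55 and 6.07 in GFP+ and 7.04, 6.35, 7.56 and 7.25 in GFP- cells of odor pools. Top2a in vehicle pools read 5.8, 5.95, 5.63 and 5.66 in GFP+ and 7.36, 6.59, 6.9 and 6.88 in GFP- cells. Top2a was near background in GFP+ cells and above it in GFP- cells, with differences of -1.25 ± 0.20 (adjusted p = 0.000991) and -1.17 ± 0.20 (adjusted p = 0.00154).

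Other genes of the cell cycle were counted in 10 lists with 115 names, of which 110 were on the array. In odor pools 45 of the 110 were called lower and 0 higher, and in vehicle pools 39 were called lower and 1 higher, with 36 called lower in both arms. The shares of all genes called lower were 10.6%, 10.8% and 9.26% in the odor arm, the vehicle arm and both. The median differences of the 110 genes were -0.29 and -0.32. The higher one was E2f4, a repressor E2F of resting cells, at 0.69 ± 0.19 in vehicle pools (adjusted p = 0.0258) and 0.36 in odor pools (adjusted p = 0.221). Of the 36 called lower in both arms, 11 had means above background in both fractions, 12 in GFP- cells only and 13 in neither. Mitotic motors and cytokinesis genes outside the 49 had the most calls, 11 of 14 in both arms, among them the kinesins Kif20b (-2.59 ± 0.24 in odor pools, -2.87 ± 0.24 in vehicle pools) and Kif15 (-2.05 ± 0.37 and -2.4 ± 0.37). These 2 kinesins were under background in every GFP+ sample, with lower bounds of 1.71-fold and 1.82-fold for Kif20b and 1.51-fold and 1.57-fold for Kif15. Condensin and cohesin genes were called in both arms for 4 of 11, such as the condensin subunits Ncapg (-2.07 ± 0.18 and -1.26 ± 0.18) and Ncaph (-2.05 ± 0.25 and -1.79 ± 0.25). Ncapg and Ncaph were under background in every GFP+ sample, and the lower bound for Ncapg in odor pools was 1-fold. Kinetochore and checkpoint partners were called for 4 of 11, with Nuf2, the partner of Ndc80, at -2.17 ± 0.4 and -2.26 ± 0.4. The CDK1 switch and control of the anaphase-promoting complex had 5 of 11 called, with the inhibitor Fbxo5 at -1.41 ± 0.16 and -1.39 ± 0.16. Of these 5 genes, 3 had means not above background in either fraction.

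DNA polymerases and fork factors had 0 of 19 called in both arms. In odor pools 2 were called, Prim2 (-0.67 ± 0.18, adjusted p = 0.0247) and Pole2 (-0.62 ± 0.19, adjusted p = 0.0463), and in vehicle pools 0 were (Prim2 -0.35 ± 0.18 and Pole2 -0.48 ± 0.19). Origin recognition and firing genes had 1 of 13 called in both arms, a share no higher than that of all genes (9.26%). It was Dbf4, the partner of the Cdc7 kinase, at -1.81 ± 0.24 and -1.28 ± 0.24. Some genes that hold back division were lower in GFP+ cells as well. Cdkn1b, the inhibitor p27, differed by -4.92 ± 0.27 in odor pools and -5.08 ± 0.27 in vehicle pools, a level at least 11.0-fold and at least 13.3-fold lower. Btg2, an antiproliferative gene that neurons also induce with activity, differed by -5.47 ± 0.21 and -5.71 ± 0.21, and its relative Btg1 by -1.44 ± 0.15 and -1.71 ± 0.15. Counts in both arms were 3 of 8 for CDK inhibitors and 3 of 6 for pocket proteins and quiescence genes. Of the D cyclins and G1 kinases 3 of 5 were called in both arms, Cdk2 (-3.69 ± 0.3 and -3.52 ± 0.3), Ccnd3 (-1.65 ± 0.17 and -1.91 ± 0.17) and Ccnd2 (-1.57 ± 0.18 and -1.02 ± 0.18). The mean of Ccnd2 was not above background in either fraction. E2f2, an activating E2F, differed by -5.13 ± 0.3 and -5.3 ± 0.3, at least 13.9-fold and 15.8-fold lower. In its list of E2F and mitotic transcription factors 2 of 12 genes were called lower in both arms.

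**Figure D3:**
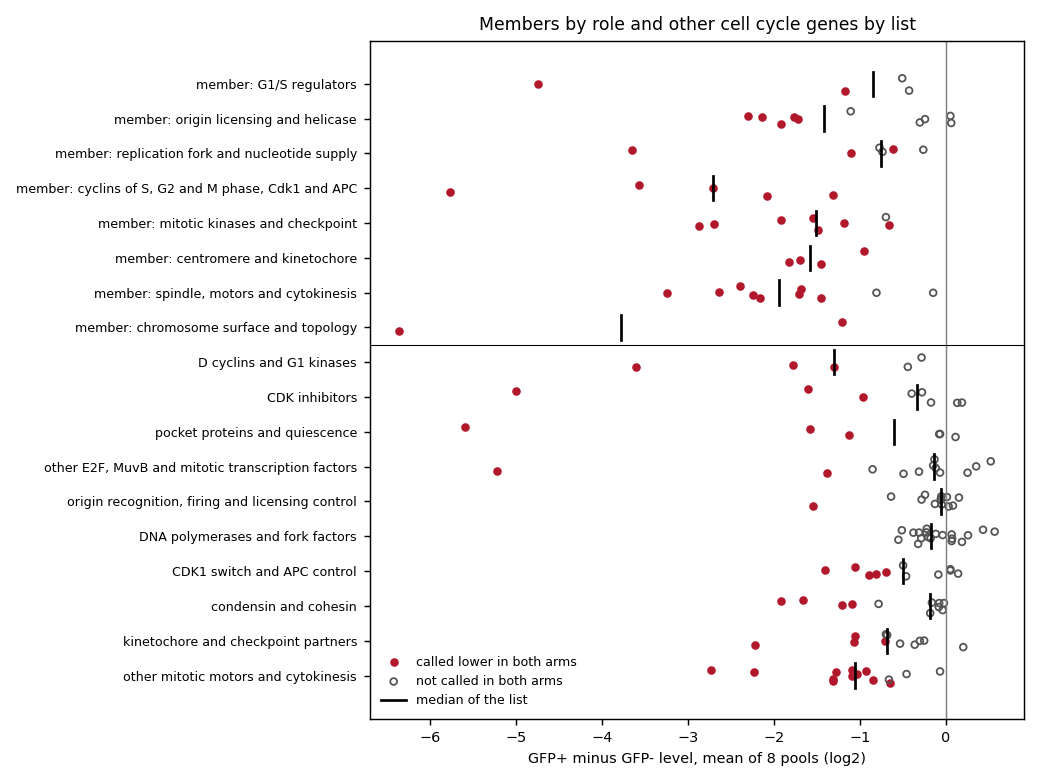
Mean GFP+ minus GFP- log2 difference over the 8 pools for each of the 49 genes by role (upper block) and for 110 other cell cycle genes by list (lower block), with filled points for genes called lower in both arms, open points for the rest and a bar for the median. In the upper block filled points prevail from the cyclins downward. In the lower block they are 11 of 14 for other mitotic motors and cytokinesis, 1 of 13 for origin recognition and 0 of 19 for polymerases.

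The odor did not separate these genes from the vehicle at the depth of 4 pools against 4. In GFP+ cells 0 of the 49 genes were called between odor and vehicle (0% of all 19505 genes), in GFP- cells 0 of 49 (0.00513% of all genes, which is 1 gene, the odorant receptor gene Olfr76, named after its value was seen), and in the within-pool difference 0 of 49 (0% of all genes) by limma with Benjamini-Hochberg adjustment. At an unadjusted p under 0.05 there were 5, 0 and 2 of the 49 genes, where 5.49%, 3.57% and 3.35% of all genes passed. The smallest adjusted p among the 49 was 0.891 in GFP+ cells and 1 in the other comparisons. The median odor minus vehicle difference of the 49 genes was 0.05 in GFP+ cells and -0.05 in GFP- cells. In GFP- cells the 95% intervals had a median reach of 0.62 to either side on the log2 scale, and 37 of 49 lay within 1 unit of 0 on both sides. In GFP+ cells the median reach was 0.39, and 46 of 49 intervals lay within 1 unit. All 49 intervals lay within 2 units in either fraction, which leaves room for smaller differences.

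In GFP+ cells the 5 genes with an unadjusted p under 0.05 were Mcm6, Mcm10, Hmmr, Cenpa and Ube2c. Mcm6 was higher by 0.44 (95% interval 0.11 to 0.77) and Mcm10 lower, at -0.35 (-0.6 to -0.09), with adjusted p = 0.891 for both in limma. Hmmr and Ube2c, higher by 0.36 (0.05 to 0.66) and 0.42 (0.03 to 0.81), were under background in all 8 GFP+ samples. The Mki67 difference was 0.15 (-0.41 to 0.71) in GFP+ cells and -0.18 (-1.1 to 0.74) in GFP- cells. The Pcna difference was 0.13 (-0.14 to 0.4) in GFP+ cells and 0 (-0.4 to 0.4) in GFP- cells. In GFP- cells the estimates ran from -0.48 (-1.35 to 0.38) for Cdk1 to 0.45 (-0.32 to 1.23) for Plk1. For the within-pool difference the 2 genes were Uhrf1, at 0.62 (0.15 to 1.09), and Birc5, at 0.63 (0.03 to 1.22), with limma adjusted p = 1. In both genes the step between the fractions was smaller in odor pools, and this difference was not called.

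**Figure D4:**
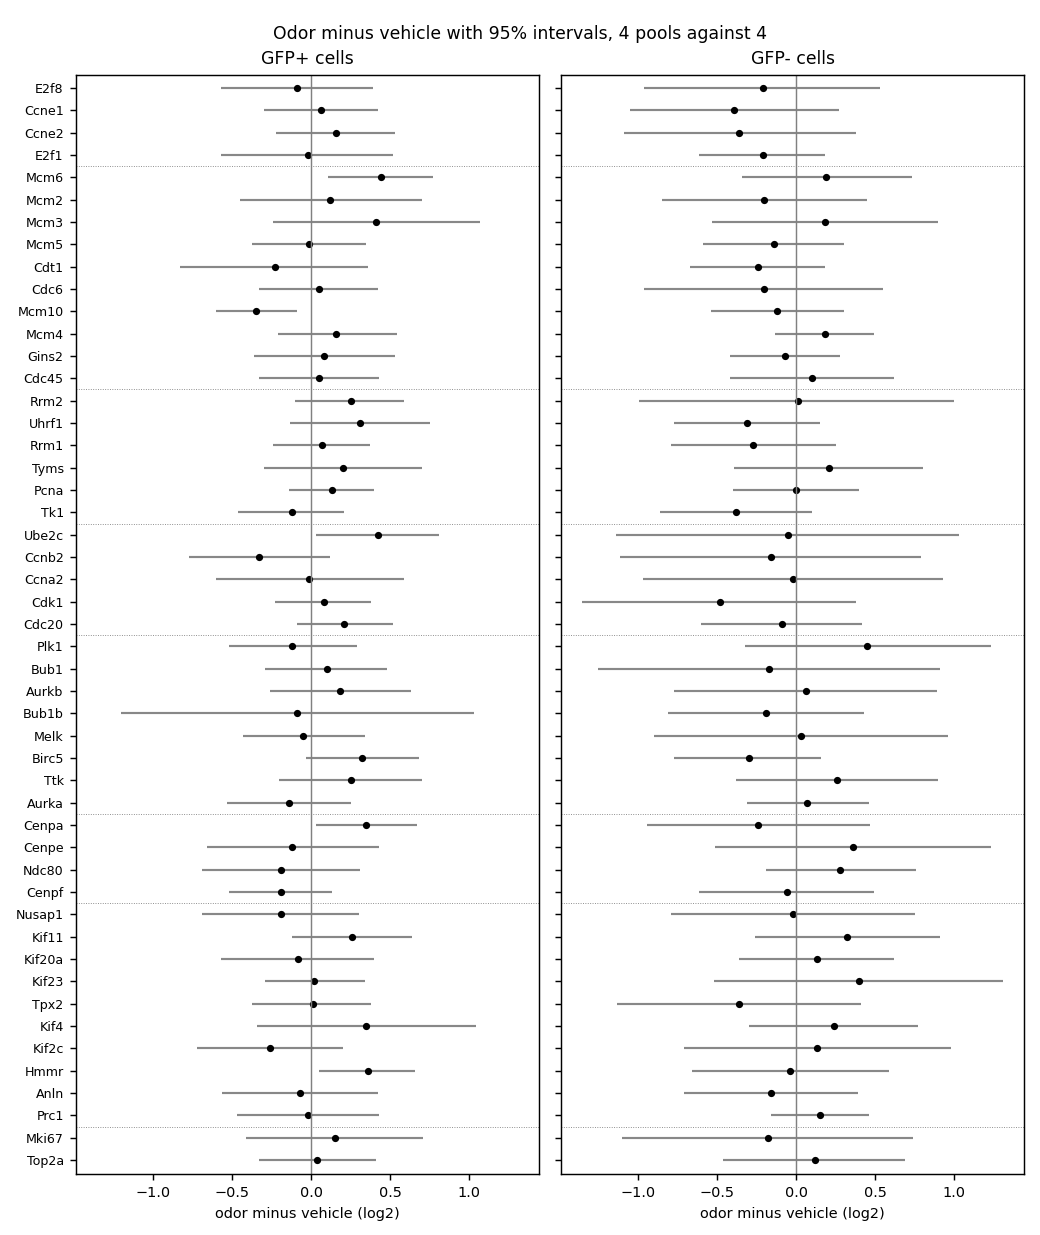
Odor minus vehicle log2 difference with its 95% interval, 4 pools against 4, for the 49 genes in GFP+ cells (left) and GFP- cells (right). Most intervals cross 0, and those that do not, such as Mcm6 (0.11 to 0.77) and Mcm10 (-0.6 to -0.09) in GFP+ cells, belong to genes that were not called after adjustment.

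The GFP- samples differed among themselves in both arms. Over the 36 genes called in both arms, the GFP- sample of odor replicate 1 was the highest of the 8 for 16 genes and that of vehicle replicate 1 for 11 genes. The GFP- sample of odor replicate 2 was the lowest of the 8 for 15 genes and that of odor replicate 3 for 11 genes. The mean level of the 49 genes in GFP- cells was 7.67, 6.73, 7.03 and 7.45 in odor replicates 1 to 4 and 7.59, 7.13, 7.03 and 7.27 in vehicle replicates 1 to 4. For the cyclins, Cdk1 and genes of the anaphase-promoting complex these means were 7.91, 6.76, 6.61 and 7.56 in odor pools and 8.18, 7.28, 6.63 and 7.38 in vehicle pools. Mki67 and Top2a together had another order in odor pools, 9.63, 8.08, 9.58 and 9.34, with replicate 3 near the top, and 9.51, 8.85, 9.11 and 9.28 in vehicle pools. Without odor replicate 2 the odor arm had 39 of the 49 genes called lower.

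Markers of several cell types moved with the fractions, and their part in these results was not tested. Among 8 maturing neutrophil markers, 8 were called lower in GFP+ cells in both arms, with mean levels from 4.83 to 6.12 in GFP+ samples of both arms and from 13.25 to 15.43 in GFP- samples. Their GFP- means were 15.09, 13.88, 13.49 and 14.55 in odor pools and 15.43, 14.5, 13.25 and 14.11 in vehicle pools. Marrow myeloid precursor genes such as Mpo and Elane were called lower for 6 of 6, with GFP- means of 8.42, 7.74, 8.09 and 8.15 in odor pools and 8.92, 7.69, 7.78 and 7.89 in vehicle pools. Of 7 erythroid precursor genes, 5 were called in odor and 4 in vehicle pools, with GFP- means of 8.74, 7.58, 8.25 and 8.34 in odor pools and 8.5, 8.13, 7.88 and 8.47 in vehicle pools. The means of Gata1, Klf1 and Epor were under background in both fractions, and Alas2, Slc4a1, Car1 and Tfrc were above it in GFP- cells. B cell precursor genes were called for 4 and 5 of 7, with GFP- means from 5.7 to 6.24, although Vpreb1, Rag2, Igll1 and Dntt were under background in both fractions. Macrophage and monocyte genes were called for 3 and 5 of 5, with GFP- means from 8.85 to 9.53.

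The globose basal cell list was called lower for 5 of 6 genes in both arms. Its GFP- means were 7.87, 7.83, 7.82 and 7.85 in odor pools and 7.81, 7.58, 7.67 and 7.63 in vehicle pools, a narrower range than that of the 49 genes, and its GFP+ means lay between 5.64 and 6.01. In this list Kit, Cxcr4, Hes6 and Ezh2 were above background in GFP- cells and called lower in GFP+ cells in both arms, while Neurog1 and Lgr5 were under background in both fractions. Kit and Cxcr4 are also known from blood precursors, and Ezh2 from dividing cells of many kinds. Immature sensory neuron genes were called for 5 of 7, with GFP- means of 11.88, 11.97, 11.58 and 11.96 in odor pools and 11.41, 11.74, 12.08 and 12.2 in vehicle pools. Horizontal basal cell genes were called for 2 of 5, Icam1 and Cebpd. Of this list Cebpd alone was above background in GFP- cells, and Icam1, Krt5, Krt14 and Trp63 were under background in both fractions. Sustentacular cell genes were called for 4 and 5 of 6, with GFP- means from 8.76 to 9.9. The 7 mature sensory neuron genes, Omp among them, had means from 17.76 to 17.82 in GFP+ samples and from 17.34 to 17.74 in GFP- samples, with 0 called lower and 1 called higher in GFP+ cells in either arm. These probes read near the top of the scale (Stoml3 at 19.35 in GFP+ and 19.31 in GFP- cells of odor pools), where a difference between the fractions may not show.

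**Figure D5:**
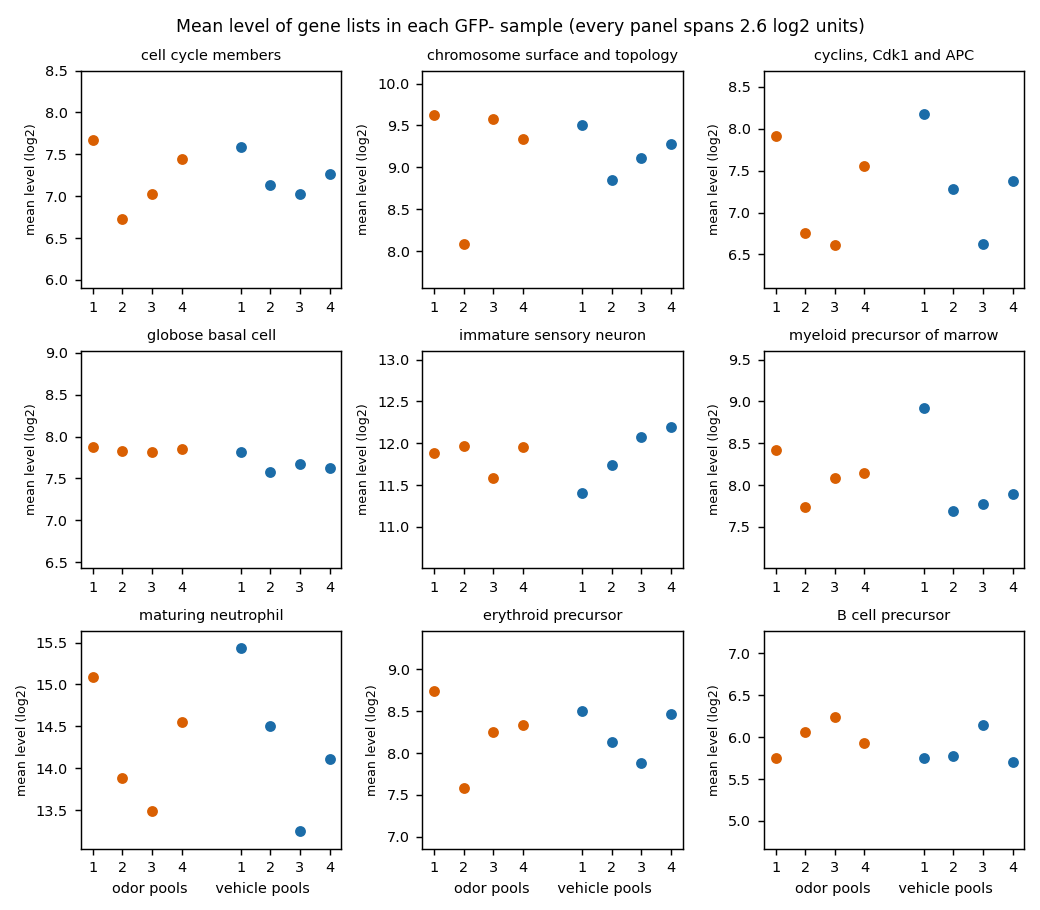
Mean log2 level of gene lists in each of the 8 GFP- samples, odor replicates 1 to 4 and vehicle replicates 1 to 4, with every panel drawn over the same span. The 49 genes, the cyclin group and Mki67 with Top2a are highest in odor replicate 1 and vehicle replicate 1. So are the maturing neutrophil, myeloid precursor and erythroid precursor lists, and the globose basal cell list, which stays between 7.58 and 7.87. The immature sensory neuron and B cell precursor lists are not.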

How the data were processed

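Values were deposited by the authors as 1 table of log2 levels per probe for 16 Clariom S arrays. Per the submitters' processing notes they were made with Affymetrix Expression Console. The sources used here give no version, background correction or normalization, and base 2 was taken from the span of the values. Biotinylated cRNA came from 50 to 100 ng of total RNA, per the labels' protocols.

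Of 28846 probes, 19572 had 1 gene symbol, and the probe with the highest mean stood for a gene, which left 19505 genes. Tests used limma 3.58.1 in R 4.3.3 (two-sided, Benjamini-Hochberg over all genes, threshold 0.05), checked on simulated data. Both fractions of a pool come from the same 3 mice, so the 8 within-pool differences were fitted together. Odor and vehicle were compared separately in 8 GFP+ and 8 GFP- samples. Each p-value reflects how pools of 3 mice vary.

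The members and lists were chosen with earlier results of these data known. Values in every sample are given for Mki67, Top2a, Pcna, Cdk1, Ccna2, Mcm2, Cdt1 and E2f1, for the members of largest and smallest difference in each role group, and for the 3 of smallest unadjusted p in each odor comparison. Up to 3 genes are named per other list.

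The titles give number 3 to 2 vehicle pools, and the later pool code was numbered 4. Deviations of same-numbered odor and vehicle samples correlated at 0.114 to 0.242 in GFP+ cells, over 0.1 for each number, and at 0.0664 to 0.332 in GFP- cells. The comparisons as reported do not use this pairing, and the number as a block is an alternative. Alternatives were another scaling, a floor or filter at background, the mean of probes, other variance models, blocks by pool or number, and each pool left out.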

Additional observations from a re-analysis of the deposited data

Results flagged for a closer look

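For the 25 genes with values in every sample, each group of 4 levels and each group of 4 within-pool differences was searched for a value far from the other 3. This gave 9 values in 150 groups (6%), where chance gives about 1 in 20 groups.

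Helicase genes had 3 of them. Mcm2 in GFP+ cells of vehicle replicate 3 read 4.61, with the others at 5.38 to 5.51. Gins2 read 4.35 in GFP- cells of odor replicate 1 (others 4.59 to 4.62) and 4.17 in GFP+ cells of vehicle replicate 1 (others 4.68 to 4.78). All Gins2 values were under the array background.

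Tk1 read 4.63 in GFP+ cells of vehicle replicate 3 (others 4.93 to 4.95), and its within-pool difference in vehicle replicate 4 was 0.31, with the others between -0.72 and -0.57. Cdc20 read 2.99 in GFP+ cells of vehicle replicate 4 (others 3.21 to 3.25), and its difference in odor replicate 4 was -1.51, with the others between -1.08 and -1. Both genes were under background on every array.

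Prc1, which lies above background, read 7.1 in GFP- cells of vehicle replicate 2 (others 7.22 to 7.24). Its difference in that pool was 0.26, with the others between -0.18 and -0.13.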

How the results depend on the processing

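With each array centred on its median, the median of all genes moved from 0.11 to 0.46 (odor) and 0.45 (vehicle), and 12346 and 12265 genes were called, against 3620 and 3835. Genes called higher in GFP+ cells then made up 86.5% of calls in either arm, against 42.9% and 45.1% as deposited and 56.6% and 58.4% after quantile normalization. The median of the 49 genes less that of all genes was -1.64 and -1.6 with deposited and with centred values alike. After centring, Cdc45 and Gins2 (2 of the 49) were called higher in odor pools, and Cdc45 (1) in vehicle pools. None called as deposited, 5 genes turned positive on centring in odor pools (Ccne2 0.09, E2f1 0.01, Mcm4 0.09, Tk1 0.21, Prc1 0.11) and 4 in vehicle pools (Mcm4 0.12, Mcm10 0.16, Gins2 0.32, Prc1 0.29). Quantile normalization turned Ccne2 (0.1), Tk1 (0.01) and Prc1 (0.02) in odor pools and Mcm10 (0.18), Gins2 (0.09) and Prc1 (0.22) in vehicle pools, and left Cdc45 at 0 in odor pools. Values raised to the array background left 23 genes called lower in odor pools and 22 in vehicle pools, turned Cdc6 (0) and Hmmr (0.02) in odor pools, and gave no value for 10 and 8 genes. Calls that held in every alternative that gave the gene a value numbered 24 of 36 in odor pools and 21 of 39 in vehicle pools. Some of these genes had no value with the floor or the filter, so fewer calls held in all alternatives. Leaving out each pool gave 34 to 39 and 34 to 40 genes called lower of the 49, and 2677 to 3768 and 2788 to 4202 of all genes. Odor against vehicle stayed at 0 of 49 called in every alternative. Over all genes the difference of differences had 1 call with the floor and 1 with no replicate block, and the GFP- comparison 0 without moderated variances and 0 to 1 with a pool left out. With the replicate number as a block, 0 of the 49 genes and 0, 0 and 1 of all genes were called in the within-pool, GFP+ and GFP- comparisons, the last again Olfr76 (adjusted p = 0.0419 in limma), so no call changed. The cause of these changes was not tested, other than the floor, which removes differences under background.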
